A study of Mus musculus with 12 samples.

Results

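Translational efficiency after knockdown of Krr1 was measured as the footprint-to-RNA ratio, the number of ribosome-protected fragments of a gene relative to its RNA in the same lysate. All 12 libraries of the series entered: 6 lysates of mouse embryonic stem cells (R1 line, cultured on gelatin in LIF medium), each divided between RNA-seq of rRNA-depleted RNA and ribosome profiling (footprints). The 3 control lysates were named siGFP, siNC and Lipo, and the 3 knockdown lysates received siKrr1 RNAs for 48 h. The table columns of the knockdown lysates carry the letters A, C and D, which could not be matched to the numbered sample titles, and the name Lipo, labelled as a control, states no siRNA. Nothing in the labels says that the lysates came from separate cultures or days, so p-values measure the spread between these lysates only. Of 23420 gene entries, 13109 had enough counts in both assays and were tested.

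KRR1 is a KH-domain protein of the small-subunit processome, the nucleolar particle that assembles and cuts the precursor of 18S ribosomal RNA. Ribosome profiling sequences the stretch of mRNA covered by a ribosome, so the ratio of footprints to RNA is used as the mean ribosome load per transcript. It is a relative measure: both libraries were scaled to their own totals, and a shift shared by all mRNAs leaves it unchanged. For genes that make no protein the same quotient is only a ratio of 2 kinds of fragment.

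The libraries held 31318772 to 39670139 counts on genes for RNA and 21615934 to 28911254 for footprints. Summed RNA of 37 pluripotency genes was 17820 to 18380 CPM (counts per 1000000 counts on genes) in controls and 15340 to 17170 in knockdowns. The 17 fibroblast and feeder genes summed to 520 to 565 CPM against 514 to 687. Of these, 8 had a mean under 1 CPM, with Col3a1, Lum and Postn at 0 counts in the RNA libraries, and Vim had 303 CPM. In controls and knockdowns, endoderm genes summed to 1419 to 1494 and 1298 to 1396 CPM, and neural genes to 236.1 to 241.5 and 180.6 to 193.4. Primed epiblast genes summed to 333.3 to 352.4 and 381.5 to 399.3 CPM. The sums were 81.71 to 87.97 and 72.07 to 80.4 CPM for trophectoderm genes, and 18.55 to 21.22 and 18.74 to 30.22 for mesoderm genes. The part of these lists in the ratio changes was not tested.

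Krr1 itself stood at 155, 151 and 160 CPM of RNA in siGFP, siNC and Lipo and at 33.7, 57.9 and 64.9 CPM in knockdowns A, C and D. That left 21.7%, 37.3% and 41.8% of the control mean in RNA and 18.9%, 37.4% and 31.4% in footprints. Its log2 ratio was 0.09, 0.06 and 0.09 in controls and -0.11, 0.09 and -0.33 in knockdowns, so the groups overlapped. The transcripts that remained did not pass the test for a changed ratio (log2 change -0.20 ± 0.09 SE, n = 3 lysates per group, adjusted p = 0.700, edgeR quasi-likelihood test). RNA and footprints of Krr1 each fell, by 1.58 ± 0.18 (adjusted p = 0.00228) and 1.77 ± 0.18 (adjusted p = 0.000819) on the log2 scale.

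Few genes passed the threshold for a changed ratio. With the lysate as a block, 7 genes passed in the higher direction (0.0534% of those tested) and 1 in the lower (0.00763%), at a Benjamini-Hochberg adjusted p under 0.05. The same lysates gave 378 genes higher (2.69%) and 296 lower (2.11%) in RNA and 450 higher (3.39%) and 356 lower (2.68%) in footprints. At an unadjusted p under 0.05 the ratio was higher for 563 genes (4.29%) and lower for 368 (2.81%). The lysates of the groups did not overlap in the higher direction for 868 genes (6.62%) and in the lower for 773 (5.9%). Without the lysate as a block no gene passed in either direction, and 202 higher and 100 lower genes had an unadjusted p under 0.05. DESeq2 with the lysate as a term called 17 higher and 6 lower, and leaving out either siNC or Lipo left 1 higher and 0 lower.

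The median change over all genes was 0.00 and 95.2% of genes lay within 0.5 log2 units of no change. The interquartile range of the change was 0.190 for the ratio, against 0.275 for RNA and 0.275 for footprints. Pairs of lysates were compared on 6117 genes with at least 20 CPM in both assays. The interquartile range of the ratio difference between 2 controls was 0.142 to 0.197, between 2 knockdowns 0.184 to 0.212, and between a control and a knockdown 0.153 to 0.238. For RNA the control pairs spanned 0.109 to 0.177, the knockdown pairs 0.213 to 0.287 and the mixed pairs 0.183 to 0.318, and for footprints 0.107 to 0.150, 0.200 to 0.221 and 0.189 to 0.265. In RNA and footprints the control pairs thus lay below the mixed pairs, while the knockdown pairs lay within the range of the mixed ones. In the ratio the 3 kinds of pair overlapped.

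**Figure D1:**
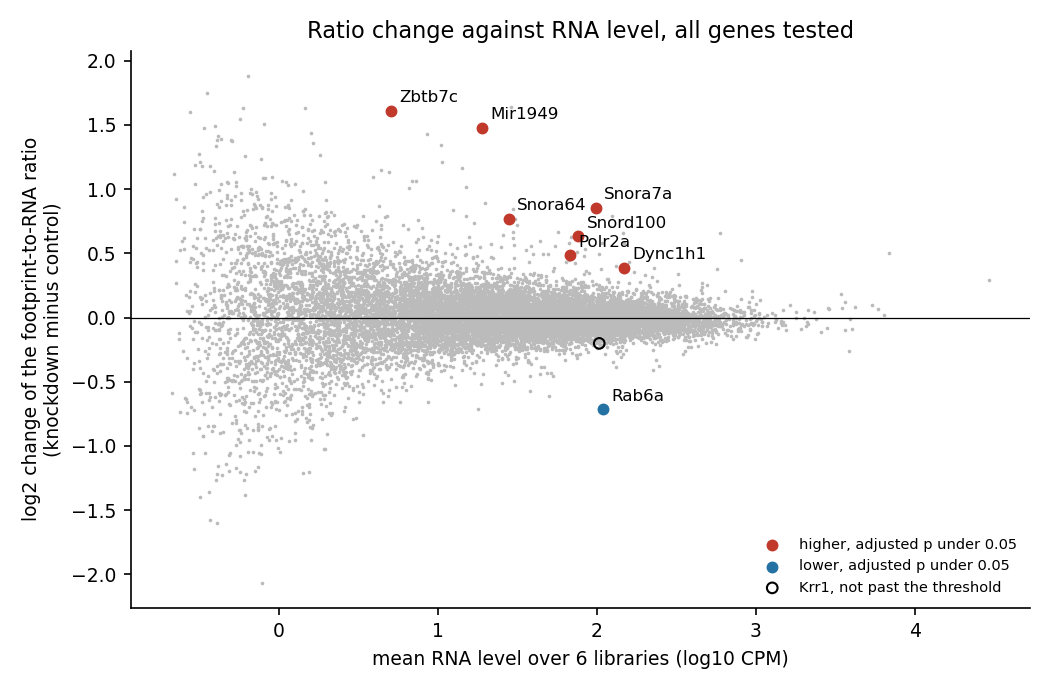
Change of the footprint-to-RNA ratio (log2, knockdown minus control, vertical axis) against mean RNA level (log10 CPM, horizontal axis), 1 point per gene for 13109 genes. The 7 genes in red rose and Rab6a in blue fell at an adjusted p under 0.05; Krr1, circled, did not pass.

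The 4 protein-coding genes that passed differed in which assay moved. Zbtb7c, a BTB and zinc-finger transcription regulator, had 8.47, 6.87 and 7.75 CPM of RNA in controls and 2.22, 2.92 and 2.15 in knockdowns A, C and D. Its footprints were 72.8, 94.2 and 94.4 CPM in controls and 62.0, 99.8 and 88.3 in knockdowns. RNA was thus lower in each knockdown, while footprints of the groups overlapped. Its log2 ratio was 3.10, 3.77 and 3.60 against 4.77, 5.07 and 5.32, a rise of 1.61 ± 0.17 (adjusted p = 0.000297). The control mean of 3.49 was already unusual: the 95th percentile was 1.363 over 9118 coding genes with at least 5 CPM in each assay. RNA fell (-1.66 ± 0.18, adjusted p = 0.00189), and the footprint change was -0.06 ± 0.15 (adjusted p = 0.854).

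Polr2a, the gene of the largest subunit of RNA polymerase II, rose in ratio mainly through its footprints. RNA was 68.4, 58.9 and 58.1 CPM in controls and 85.4, 73.4 and 62.9 in knockdowns, and footprints were 422, 346 and 293 against 621, 575 and 558 CPM. Its log2 ratio of 2.62, 2.55 and 2.34 stood at 2.86, 2.97 and 3.15 after knockdown, with no overlap (0.49 ± 0.08, adjusted p = 0.0406). The control mean of 2.50 also lay above the 95th percentile of 1.363 given for Zbtb7c. The footprints rose by 0.73 ± 0.11 (adjusted p = 0.00423), and the RNA change was 0.25 ± 0.11 (adjusted p = 0.224).

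Dync1h1, the heavy chain of cytoplasmic dynein, showed the same order of the assays. RNA was 129, 137 and 134 CPM in controls and 174, 184 and 137 in knockdowns, and footprints were 101, 108 and 104 against 180, 180 and 145 CPM. The log2 ratios of the 3 controls lay close together at -0.36, -0.34 and -0.37, below 0.05, -0.03 and 0.09 in the knockdowns (0.39 ± 0.07, adjusted p = 0.0381). Footprints rose by 0.69 ± 0.08 (adjusted p = 0.00181) and the RNA change was 0.30 ± 0.10 (adjusted p = 0.118).

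Rab6a, a small GTPase of Golgi transport, was the 1 gene that passed in the lower direction. Its RNA was 93.5, 77.2 and 80.2 CPM in controls and 87.7, 145 and 174 in knockdowns A, C and D, so A lay among the controls. Footprints stayed between 43.0 and 58.3 CPM in all 6 lysates. The log2 ratio was -0.79, -0.52 and -0.55 in controls and -1.03, -1.37 and -1.58 in knockdowns, a fall of -0.72 ± 0.11 (adjusted p = 0.0235). Neither the RNA change (0.70 ± 0.19, adjusted p = 0.0613) nor the footprint change (-0.04 ± 0.10, adjusted p = 0.858) passed by itself.

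**Figure D2:**
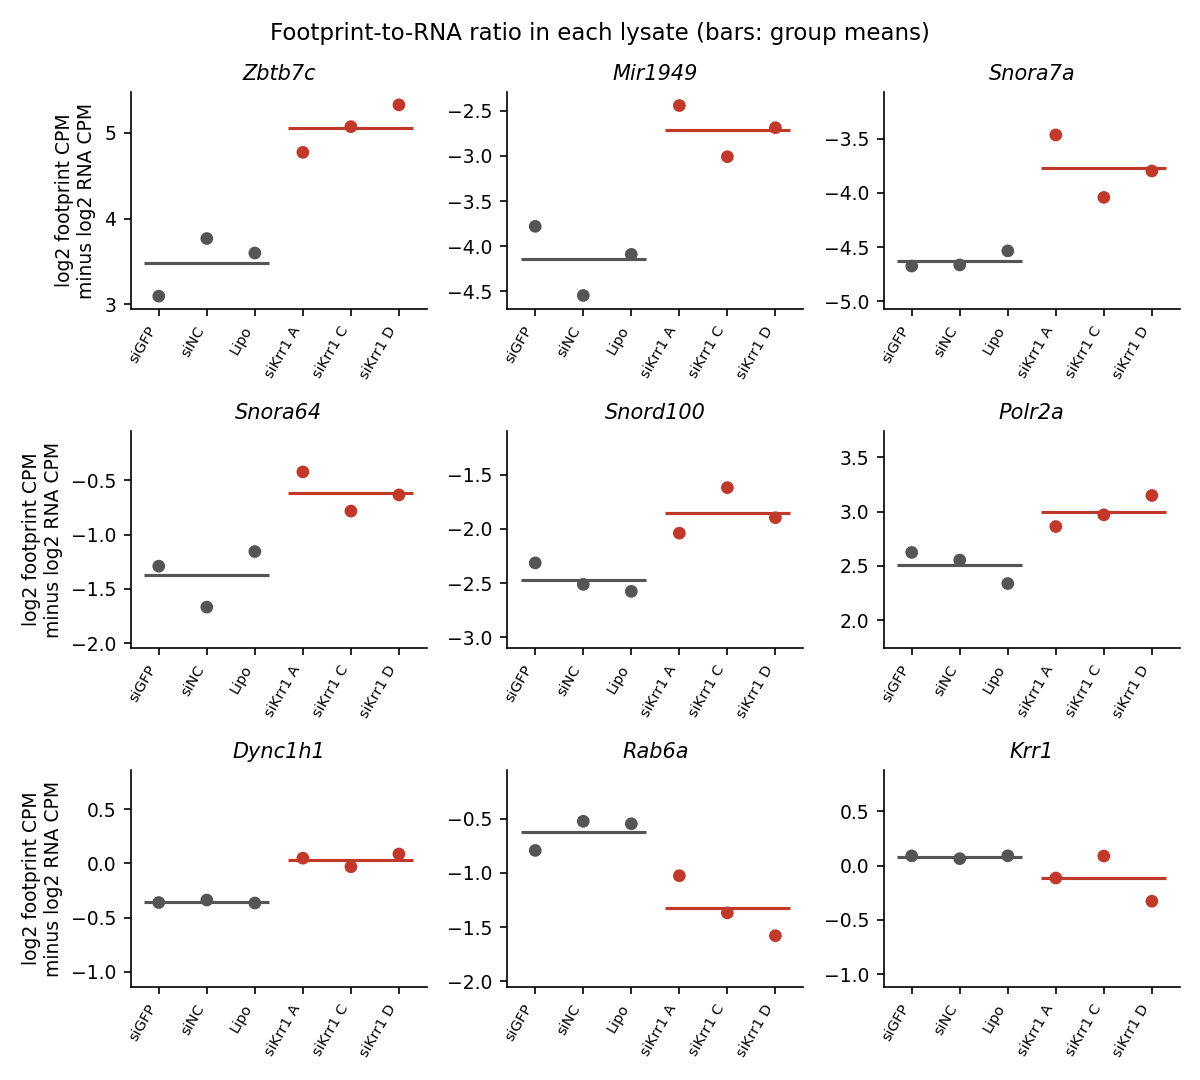
Log2 footprint CPM minus log2 RNA CPM (vertical axis, with its own range in each panel) in each of the 6 lysates for the 8 genes that passed and for Krr1; gray points are controls, red points knockdowns, bars the group means. Control and knockdown points do not overlap in the 8 genes, and they do in Krr1.

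The next genes in the lower direction did not pass and are given as values. They were Rps2, a small-subunit ribosomal protein (-0.38 ± 0.07, adjusted p = 0.0619), Gatad1, a GATA-type zinc-finger protein (-0.38 ± 0.07, adjusted p = 0.0711), and Rnf10, a ubiquitin ligase that acts on small-subunit ribosomal proteins (-0.41 ± 0.08, adjusted p = 0.0763). For Rnf10 the footprints fell, from 145, 146 and 146 CPM to 93.1, 85.3 and 98.4 (-0.66 ± 0.06, adjusted p = 0.000818), while its RNA changed by -0.25 ± 0.08 (adjusted p = 0.103). Tpst1, a tyrosylprotein sulfotransferase (-0.35 ± 0.08, adjusted p = 0.170), and Tcfl5, a helix-loop-helix transcription factor (-0.46 ± 0.11, adjusted p = 0.238), followed. Of these, DESeq2 called Rps2, Gatad1, Rnf10 and Tpst1. Rps2 has many processed copies in the genome, and its unique reads are uncertain for that reason.

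The other 4 genes that passed make small non-coding RNAs, and by gene type the medians of the small RNA genes stood apart from that of coding genes. Small nucleolar RNAs (snoRNAs) guide modification and cutting of ribosomal RNA: H/ACA box snoRNAs guide pseudouridylation and C/D box snoRNAs guide ribose methylation. Among the 119 snoRNA genes, 86 passed the filter, and 3 of them passed the threshold in the higher direction. At an unadjusted p under 0.05, 37 were higher and 2 lower, and the median change of the 86 genes was 0.37. Among 12578 coding genes the counts at that p were 494 and 356, with a median of -0.00. Over all genes tested, 0.0534% passed the threshold higher, and 4.29% were higher and 2.81% lower at the unadjusted p. Relative to the control mean, the median over snoRNA genes was 0.29, 0.40 and 0.41 in knockdowns A, C and D and -0.06 to 0.05 in the controls. The median change of snoRNA genes was -0.31 in RNA and 0.06 in footprints, beside -0.00 and 0.01 over all genes, so the larger part lay in RNA. With a mean of at least 5 CPM required in each assay, 28 snoRNA genes remained and their median change was 0.35.

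The classes of guide RNA were unequal in level and in change. For 28 H/ACA box snoRNAs the median change was 0.57 (15 higher and 1 lower at an unadjusted p under 0.05), for 50 C/D box snoRNAs 0.30 (20 and 1), and for 8 small Cajal body RNAs, which guide modification of spliceosomal RNAs, 0.53 (6 and 0). Footprint medians were 0.29, -0.03 and 0.52 and RNA medians -0.30, -0.33 and -0.11 in the same order. Over all genes tested, 4.29% were higher and 2.81% lower at an unadjusted p under 0.05. The 3 classes of guide RNA were set apart after the values had been seen. All snoRNAs together took 0.244%, 0.322% and 0.282% of RNA counts in siGFP, siNC and Lipo and 0.213%, 0.25% and 0.214% in knockdowns A, C and D. Of footprint counts they took 0.177%, 0.192% and 0.171% and then 0.198%, 0.177% and 0.157%, so the shares of the groups overlapped in both assays.

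Snora7a, an H/ACA box RNA at chr6:115807975-115808103, had 95.9, 134 and 109 CPM of RNA in controls and 73.7, 97.8 and 80.7 in knockdowns. Its footprint-sized fragments were 3.68, 5.22 and 4.61 CPM and 6.60, 5.86 and 5.72 CPM. The log2 ratio of -4.67, -4.66 and -4.53 stood at -3.47, -4.04 and -3.80 after knockdown (0.85 ± 0.14, adjusted p = 0.0235). The gene lies within Rpl32, whose own ratio changed by -0.01 ± 0.09 (adjusted p = 0.988).

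Snora64, at chr17:24720789-24720905, lies within Rps2, named above for a ratio on the lower side. Its RNA was 26.5, 36.5 and 27.8 CPM in controls and 26.5, 26.5 and 24.5 in knockdowns, and its fragments in the footprint libraries were 10.8, 11.4 and 12.4 against 19.7, 15.4 and 15.7. Only the latter separated the groups. The ratio rose by 0.77 ± 0.14 (adjusted p = 0.0411), opposite in sign to the -0.38 of Rps2.

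Snord100, a C/D box RNA at chr10:23785754-23785821, lies within Rps12. Its log2 ratio was -2.31, -2.51 and -2.58 in controls and -2.04, -1.62 and -1.90 in knockdowns (0.63 ± 0.11, adjusted p = 0.0406), beside -0.34 ± 0.19 for Rps12 (adjusted p = 0.756). Positions are from RefSeq on GRCm38.p6, the assembly also named mm10. Over all snoRNAs tested, 61 lay within exactly 1 coding gene, and these had a median change of 0.34. Their 46 distinct host genes had a median of 0.05. None of the hosts passed, where 0.0534% of all genes tested passed higher and 0.00763% lower. A setting for strand is not given in the sources used here, so a read of a snoRNA and one of an overlapping transcript may not be told apart.

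MicroRNA genes formed the remaining type. Among the 646 miRNA genes, 39 passed the filter and 1 passed the threshold, in the higher direction. At an unadjusted p under 0.05, 10 were higher and 0 lower, beside 4.29% and 2.81% of all genes tested. The median change of the 39 genes was 0.44. Taken by symbol instead, the set gained host transcripts and entries of no listed type and lost some of the 39 genes. These 40 genes gave 9 higher, 1 lower and a median of 0.25. The 5 of them with at least 5 CPM in each assay had a median of -0.11. Relative to the control mean the median of the 39 genes was 0.18, 0.31 and 0.64 in knockdowns A, C and D and -0.10, 0.09 and 0.18 in siGFP, siNC and Lipo, so A stood beside Lipo. Levels were low, with a median of 0.64 CPM in RNA and 1.68 CPM in footprints. The filter asked for enough counts in only as many libraries as 1 condition has, so genes this low could pass through 1 condition alone. How far that shaped the counts and the median of the miRNA genes was not tested. Mir1949 rose by 1.48 ± 0.23 (adjusted p = 0.0235): its RNA was 19.1, 27.9 and 23.5 CPM against 12.4, 17.1 and 14.0, and its footprint-sized fragments were 1.32, 1.12 and 1.31 against 2.21, 2.05 and 2.10. It and the miRNA genes below were named after their values were seen.

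Mature sequences are shown for 4 of the 10 miRNA genes with an unadjusted p under 0.05. A fragment of footprint size on such a gene can overlap the mature RNA, but the counts do not tell the arms apart. Capitals mark the seed, bases 2 to 8 from the 5′ end (RefSeq, GRCm38.p6).
mmu-miR-16-5p: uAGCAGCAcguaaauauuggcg
mmu-miR-15a-5p: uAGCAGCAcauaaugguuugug
mmu-miR-290a-5p: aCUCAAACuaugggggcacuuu
mmu-miR-290a-3p: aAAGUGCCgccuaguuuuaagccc
mmu-miR-434-5p: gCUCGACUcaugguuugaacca
mmu-miR-434-3p: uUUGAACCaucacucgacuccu
The miR-16 and miR-15a arms shown share the seed AGCAGCA, and their genes are neighbors on chromosome 14, so they are no separate observations. The 3p arms of Mir16-1 and Mir15a, not shown, have different seeds, and these genes had means of 0.35 and 0.41 CPM of RNA. Mir290, from the stem cell cluster of that name, had log2 ratios of -0.47, 0.06 and -0.39 in controls and -0.07, 0.63 and 1.02 in knockdowns, which overlapped (0.76 ± 0.23, adjusted p = 0.432). Mir434 had 2.55, 2.44 and 2.96 against 3.04, 3.31 and 3.09, without overlap (0.51 ± 0.17, adjusted p = 0.566).

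Long non-coding RNAs had a median ratio change of -0.01 over 248 genes and pseudogenes 0.02 over 87. None of either passed, beside 0.0534% higher and 0.00763% lower over all genes tested.

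**Figure D3:**
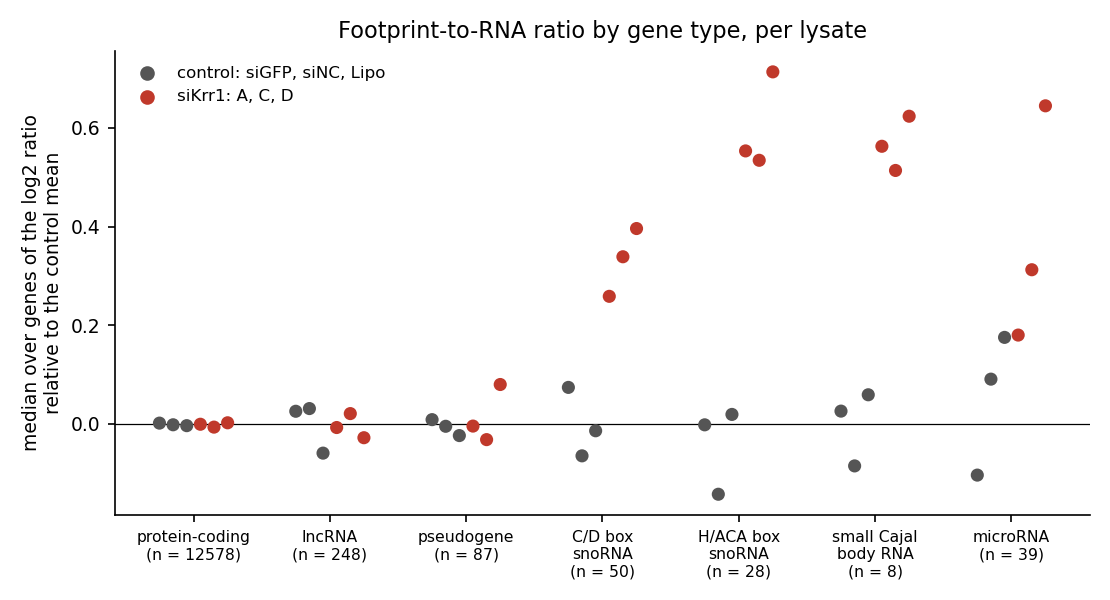
Median over the genes of each type of the log2 footprint-to-RNA ratio relative to the control mean (vertical axis), 1 point per lysate, gray for controls and red for knockdowns. The 3 knockdowns lie above the 3 controls for both snoRNA classes and the small Cajal body RNAs, and all lysates lie near 0 for 12578 coding genes.

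Among coding genes, the components and regulators of translation were described first. Ribosomal protein mRNAs belong to the TOP class, whose 5′ end is a C followed by a run of pyrimidines and whose translation responds to growth signals. None of 33 small-subunit ribosomal protein genes passed, where 0.0534% of all genes tested passed higher and 0.00763% lower. Of the 33, 6 were higher and 1 lower at an unadjusted p under 0.05, against 4.29% and 2.81% of all genes. The median change of the 33 genes was 0.14. It was -0.01, 0.23 and 0.15 in knockdowns A, C and D, so A stood below 0. For 49 large-subunit genes the counts were 10 and 1 with a median of 0.05, and for 20 other TOP mRNAs 5 and 0 with a median of 0.09. Without siNC the small-subunit median was 0.08 and that of the other TOP mRNAs 0.06, and without knockdown A the large-subunit median was 0.09. The changes of the separate assays were -0.13 in RNA and -0.02 in footprints for the small subunit, -0.18 and -0.09 for the large subunit, and -0.12 and -0.02 for the other TOP mRNAs.

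Rps3, the most abundant small-subunit gene, had log2 ratios of -0.76, -0.98 and -0.90 in controls and -0.87, -0.72 and -0.83 in knockdowns (0.07 ± 0.07, adjusted p = 0.875). Rpl8, of the large subunit, had -0.37, -0.38 and -0.36 against -0.29, -0.27 and -0.19 (0.12 ± 0.06, adjusted p = 0.720). The groups overlapped for Rps3 and did not for Rpl8. The widest changes among large-subunit genes were those of Rpl35 (1.16 ± 0.34, adjusted p = 0.421), at a mean of 0.84 CPM of footprints, and Rpl10a (0.79 ± 0.17, adjusted p = 0.170). Among small-subunit genes they were those of Rps27 (0.60 ± 0.27, adjusted p = 0.700), Rps3a1 (0.47 ± 0.27, adjusted p = 0.781) and Rps24 (0.44 ± 0.10, adjusted p = 0.230). Nap1l1, a nucleosome assembly protein whose mRNA has a TOP, stood at 0.40 ± 0.08 (adjusted p = 0.130). Nap1l1 had log2 ratios of -0.28, -0.03 and -0.35 in controls and 0.05, 0.24 and 0.23 in knockdowns. Eif3f, a subunit of initiation factor eIF3, had 1.71, 1.81 and 1.78 against 2.03, 2.07 and 1.99 (0.27 ± 0.06, adjusted p = 0.234). DESeq2 called Rps24, Rpl10a, Nap1l1 and Eif3f; these and the other genes of wide change were named after their values were seen. Ribosomal protein genes have many pseudogene copies that compete for unique reads, so their counts are uncertain.

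The starts of 6 such genes are shown, the most abundant among ribosomal protein and TOP genes whose RefSeq start is C with at least 4 pyrimidines after it. Each runs from 10 bases before the start to 20 bases from it on, on the strand of the gene, with the pyrimidine run from the start in capitals (RefSeq, GRCm38.p6).
Gnb2l1: gccgctctttCTTTTTCTCCacagggtcgt
Rplp2: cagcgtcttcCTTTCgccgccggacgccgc
Rps21: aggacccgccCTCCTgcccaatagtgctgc
Rps18: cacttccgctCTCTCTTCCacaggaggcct
Rpl14: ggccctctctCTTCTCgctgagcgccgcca
Eif3f: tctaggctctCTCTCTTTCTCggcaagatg
These genes ranged in change from -0.00 (Rpl14) over 0.06 (Gnb2l1), 0.10 (Rps18), 0.13 (Rps21) and 0.27 (Rplp2) to the 0.27 of Eif3f. A start of this form was searched on the gene's strand in 10326 tested genes with a listed RefSeq start and was found in 308 (2.98%). Their median change was 0.00, against -0.00 in the other 10018, with 18 higher and 7 lower at an unadjusted p under 0.05. With at least 6 pyrimidines after the C, 136 genes had a median of 0.03 (14 higher and 1 lower). Over all genes tested the shares at that p were 4.29% higher and 2.81% lower. Of the ribosomal protein genes with a start, 7 of 25 small-subunit and 7 of 36 large-subunit ones held the form. The listed starts may not be exact, which was not tested. Beginning within 5 bases of the start, a choice made after seeing the data, the form was in 10 and 11 of them. Their medians were 0.08 and 0.09, against 0.14 and 0.04 in the genes without it.

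No gene of the machinery that Krr1 belongs to passed the threshold, which 0.0534% of all genes tested passed higher and 0.00763% lower. Of 64 small-subunit assembly factors, 3 were higher and 2 lower at an unadjusted p under 0.05, Krr1 among the latter, with a median of -0.01. Over all genes the shares at that p were 4.29% and 2.81%. Emg1, an rRNA methyltransferase, had log2 ratios of -1.35, -1.43 and -1.47 in controls and -1.49, -1.43 and -1.41 in knockdowns (-0.03 ± 0.06, adjusted p = 0.954). The 58 large-subunit assembly factors gave 3 and 0 with a median of -0.00. Translation initiation factors had a median of 0.03 (41 genes, 4 and 3) and aminoacyl-tRNA synthetases -0.02 (40 genes, 0 and 2). For 75 mitochondrial ribosomal proteins the counts were 1 and 5 and the median -0.04, with -0.08, -0.03 and -0.01 in knockdowns A, C and D relative to the control mean. A lay below the control range of -0.05 to 0.07 and C and D within it, and the median change was -0.00 without siGFP and -0.08 without Lipo. Proteasome subunits (37 genes, 0 and 1) had a median of -0.05, or -0.00 without siGFP, and nuclear-encoded respiratory chain and ATP synthase genes (86 genes, 3 and 6) -0.03.

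Lists whose RNA moved had small changes in ratio. The 43 p53 targets had a median change of 0.48 in RNA and 0.51 in footprints, and 0.04 in ratio. At an unadjusted p under 0.05, 5 of them were higher and 2 lower in ratio, beside 4.29% and 2.81% of all genes. Relative to the control mean their ratio median was 0.09, 0.03 and 0.06 in knockdowns A, C and D, above the -0.01, 0.02 and -0.00 of siGFP, siNC and Lipo. The lysates did not overlap for 10 genes in the higher and 3 in the lower direction, beside 6.62% and 5.9% of all genes tested. The median ratio change of the p53 targets was 0.01 without siGFP or without knockdown A. Mdm2, the ubiquitin ligase that limits p53, had log2 ratios of -0.49 in each control and -0.12, -0.25 and -0.26 in knockdowns (0.28 ± 0.07, adjusted p = 0.234), with RNA (0.63 ± 0.13, adjusted p = 0.0249) and footprints (0.93 ± 0.15, adjusted p = 0.00705) both risen. Ccng1, cyclin G1, had the opposite sign, -1.14, -1.25 and -1.42 against -1.54, -1.50 and -1.75 (-0.33 ± 0.08, adjusted p = 0.268). The 30 actin cytoskeleton and SRF genes stood at 0.39 in RNA, 0.47 in footprints and 0.02 in ratio, the last 0.07 without Lipo and 0.01 without siNC. ATF4 and amino acid response genes, which are transcribed under amino acid shortage, stood at -0.30 in RNA, -0.35 in footprints and -0.02 in ratio (0.00 without Lipo), with 0 of 33 at an unadjusted p under 0.05 in either direction.

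Genes whose translation is known to be set by upstream open reading frames or by iron were few. Of 13 stress genes with upstream open reading frames, 5 were higher and 1 lower at an unadjusted p under 0.05. The shares over all genes tested were 4.29% and 2.81%, and the median change of the 13 genes was 0.09. Relative to the control mean the list's median was -0.01, 0.13 and -0.01 in knockdowns A, C and D and 0.00 in each control, and its median change was 0.01 without knockdown A. Atf4, the transcription factor whose translation rises under stress through this route, was the lower one: -1.61, -1.67 and -1.73 in controls against -1.99, -1.79 and -1.83 in knockdowns (-0.20 ± 0.07, adjusted p = 0.571). Ifrd1, a transcription coregulator, had -0.22, -0.24 and -0.33 against 0.21, 0.17 and -0.02 (0.38 ± 0.07, adjusted p = 0.0619), while its RNA rose by 0.77 ± 0.07 (adjusted p = 0.00169) and its footprints by 1.17 ± 0.09 (adjusted p = 0.000378). Of 11 iron-responsive genes 4 were higher and 0 lower, with a median of 0.13, or 0.08 without knockdown D. Ftl1, the ferritin light chain, had -6.07, -5.71 and -5.56 in controls and -5.68, -4.78 and -5.02 in knockdowns, which overlapped (0.66 ± 0.16, adjusted p = 0.261), and it too has pseudogene copies.

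The 59 replication-dependent histone genes, whose near-identical copies share reads, gave 9 higher and 1 lower at an unadjusted p under 0.05. Over all genes tested the shares were 4.29% and 2.81%. The median change of the 59 genes was 0.07. That median was 0.06, -0.02 and 0.17 in knockdowns A, C and D relative to the control mean, and the median change was 0.02 without knockdown D. The 37 pluripotency genes gave 3 and 0 with a median of -0.02. Tbx3, a T-box factor of naive stem cells, was 1 of the 3: its RNA fell by 1.08 ± 0.11 (adjusted p = 0.00169) and its footprints by 0.85 ± 0.09 (adjusted p = 0.00134), and its log2 ratio was 1.82, 1.84 and 1.83 in controls and 2.03, 2.03 and 2.10 in knockdowns (0.23 ± 0.07, adjusted p = 0.402). The median was -0.02 for cholesterol synthesis (26 genes), -0.04 for glycolysis (27), -0.00 for cytosolic chaperones (30), -0.02 for chaperones of the endoplasmic reticulum (25) and 0.00 for numbered zinc-finger genes (322). No member of the gene lists other than the small RNA classes passed, where all 13109 genes tested held 7 that passed higher and 1 lower.

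**Figure D4:**
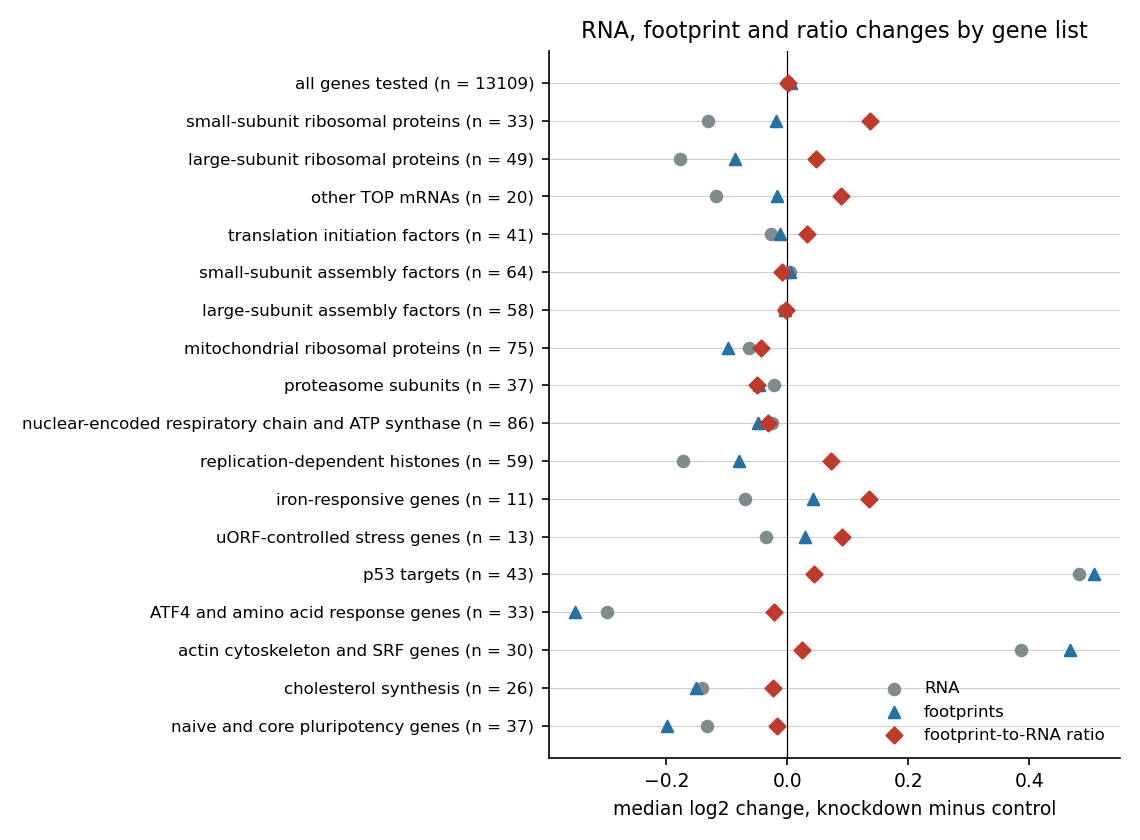
Median log2 change (knockdown minus control, horizontal axis) of RNA, footprints and their ratio for 17 gene lists and all genes tested, with the number of genes tested in each. RNA and footprint medians of p53 targets (0.48 and 0.51) and ATF4 genes (-0.30 and -0.35) lie together away from 0, while ratio medians lie between -0.05 and 0.14.

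Genes that passed on RNA or on footprints were also followed as groups. The 373 genes with higher RNA that had a ratio showed medians of 0.62 in RNA, 0.60 in footprints and -0.05 in ratio, and the 292 with lower RNA showed -0.61, -0.52 and 0.06. The 445 genes with higher footprints showed 0.51 in RNA, 0.59 in footprints and 0.07 in ratio, and the 354 with lower footprints showed -0.43, -0.46 and -0.04. The ratio medians were opposite in sign to the RNA change in the groups chosen on RNA and had the sign of the footprint change in those chosen on footprints; the ratio contains both counts, so they are descriptions. Within 0.5 log2 units of no change in ratio were 97.3%, 92.1%, 96.0% and 98.0% of the groups in this order.

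The spread of the ratio change narrowed as expression rose, while its center moved little. In 5 bins of rising RNA level the median change was 0.04, 0.02, 0.00, -0.01 and -0.02, the interquartile range 0.490, 0.260, 0.174, 0.134 and 0.111, and the median standard error 0.379, 0.174, 0.111, 0.085 and 0.070. The bin of least abundant genes held no gene that passed. By ratio in controls, the medians from the lowest to the highest bin were 0.01, -0.00, -0.01, -0.01 and 0.02. Since the controls enter both the bins and the change, the bins were also made from 1 control and the change taken against the other 2; the medians of the top bin were then 0.02 (siGFP), 0.05 (siNC) and 0.03 (Lipo), and those of the lowest bin 0.00, 0.00 and -0.00. Counts at an unadjusted p under 0.05 were taken in the bins made from all 3 controls, which also entered the test. The top bin held 176 higher and 59 lower genes and the lowest 150 and 82. The second bin held 82 and 68, the middle 84 and 87, and the fourth 71 and 72. Over all genes tested the shares were 4.29% and 2.81%. Genes not listed as protein-coding were 8.43% of the lowest bin and 2.37% to 4.20% of the others.

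**Figure D5:**
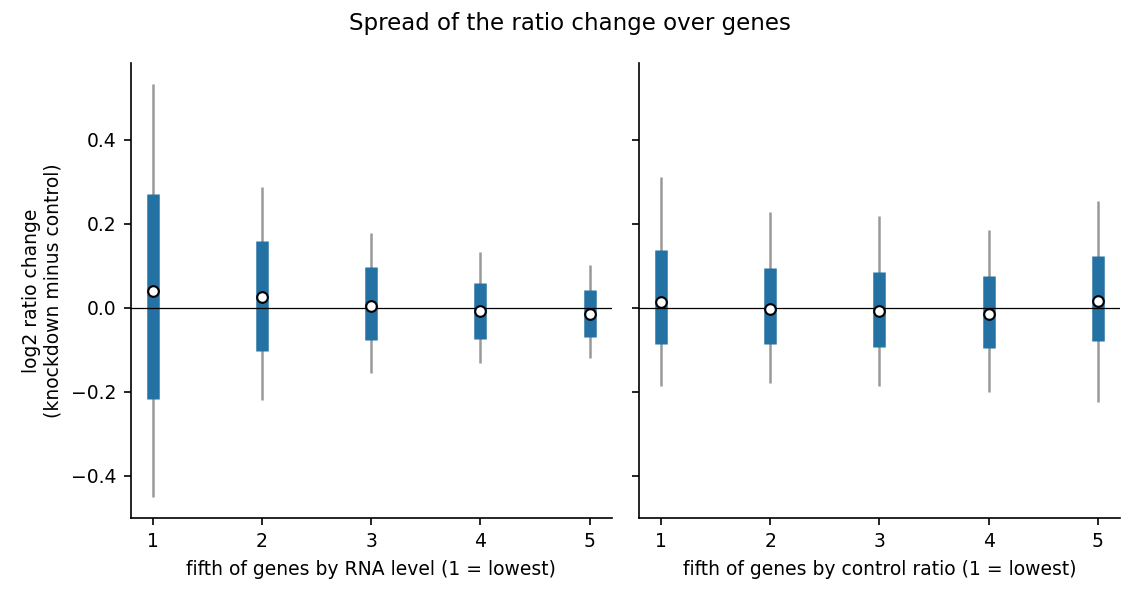
Ratio change (log2, vertical axis) in 5 bins of equal gene number by mean RNA level (left) and by control ratio (right); circles are medians, thick bars the middle 50% of genes and thin lines the middle 80%. The interquartile range falls from 0.490 to 0.111 with RNA level, while medians lie between -0.02 and 0.04.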

How the data were processed

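The authors deposited read counts per gene; the submitters' processing notes name STAR, HTSeq and the build mm10. Strand setting, annotation, trimming and versions: not given in the sources used here. The 8 summary rows of each table were left out: reads on no feature were 31.2% to 33.4% of RNA and 57.5% to 63.3% of footprint alignments. Of 23420 symbols, 23260 matched the RefSeq gene table (GRCm38.p6), which gave gene types and positions.

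Genes kept by filterByExpr in both tables were tested with edgeR 4.0.16 (R 4.3.3; limma 3.58.1), quasi-likelihood, with TMM factors per assay (0.987 to 1.03), lysate as a block, assay, and assay by condition; SE came from the F statistic. The pairing comes from the labels, which say that lysates were divided, and from the shared column names. Over 6117 genes, RNA and footprint deviations from the group means were correlated within each lysate. The r was 0.265 to 0.359 in the controls and 0.613 to 0.713 in the knockdowns. Log2 ratios per lysate used normalized CPM with a prior count of 2. List medians are means of the knockdowns minus means of the controls. RNA and footprints alone were tested in 6 libraries each.

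Members and lists were chosen with earlier results of these data known. Named genes were Krr1, up to 12 called genes per direction (at least 5 CPM in each assay, no overlap, an established symbol), filled to 6 by the smallest p, and called or most abundant members of lists; others are said to be named after their values were seen, as are Mdm2, Ccng1, Tbx3 and Ifrd1. The median SE was 0.114 per gene. Alternatives were the block, the tool (limma, DESeq2 1.42.0), scaling, filters, prior count and leaving out each lysate.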

Additional observations from a re-analysis of the deposited data

How the results depend on the processing

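The count of genes past the threshold depended on the settings. Without the replicate block, the ratio called 0 higher and 0 lower genes in place of 7 and 1, with 302 genes at an unadjusted p under 0.05 in place of 931. DESeq2 called 17 and 6, and limma on the per-lysate differences 9 and 2. Without a filter 79 and 14 of 17672 genes passed, and with a mean of at least 5 CPM in each assay 1 and 0 of 9275. RLE factors gave 7 and 1, and TMM over all libraries jointly 9 and 1. Leaving out 1 lysate gave 1 (without siNC or without Lipo) to 12 (without knockdown C) higher genes and 0 (without siNC or without Lipo) to 1 lower; without knockdown D 2 were higher. Zbtb7c passed in 12 of 13 alternatives (all but the one without the block) and Rab6a in 8. Dync1h1, Polr2a, Snora7a and Snord100 passed in 6 each and Snora64 in 5, and none of these genes changed sign. Mir1949 was removed by the 5 CPM filter. It did not pass without the block, without siNC, without Lipo, without knockdown A or without knockdown D. In the separate assays, DESeq2 called 666 higher and 536 lower genes on RNA in place of 378 and 296. Leaving out 1 library gave 63 (without Lipo) to 759 (without knockdown C) higher and 51 (without Lipo) to 539 (without knockdown C) lower on RNA, and 67 (without Lipo) to 791 (without knockdown C) higher and 64 (without Lipo) to 546 (without knockdown C) lower on footprints. For these changes the cause was not tested. The median change of snoRNA genes was 0.34 to 0.47 over 8 alternatives, that of miRNA genes 0.32 to 0.57 over 7, that of small-subunit ribosomal proteins 0.08 to 0.15, of large-subunit ones 0.05 to 0.09, of other TOP mRNAs 0.06 to 0.09, of histones 0.02 to 0.10, of stress genes with upstream open reading frames 0.01 to 0.10 and that of coding genes -0.01 to -0.00. A run of C and at least 4 pyrimidines beginning within 5 bases of the start, chosen after seeing the data, gave -0.00 over 2099 genes. The description by protein length was not run. The median SE was 0.379 in the lowest expression bin, and its cause was not tested.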
